A study of Rattus norvegicus with 304 samples.

Results

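The first hours after a dose of the dioxin TCDD were followed in the livers of Long-Evans and Han/Wistar rats, at 3, 6 and 10 h after a single gavage of 100 µg/kg. Members were the groups that the labels give this dose and one of these times, each read against the corn oil group killed at 19 h of the same strain. On the OpenArray, a plate of nanolitre PCR wells with preloaded assays, they comprised 37 of 150 samples: 24 livers after TCDD, 4 in each of 6 groups, and 13 after corn oil at 19 h, of which 7 were Long-Evans and 6 Han/Wistar. In the whole series there were 304 samples, because nearly the same livers were also run on a second instrument, the 7900HT for conventional real-time PCR, where 38 of 154 samples met the rule. All animals were males of 10-12 weeks, and the series design describes Long-Evans as sensitive and Han/Wistar as resistant to TCDD.

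No corn oil group of 3, 6 or 10 h was analysed here, so hours since gavage, time of day and TCDD cannot be told apart at these times. The remaining corn oil groups, at 96 and 240 h in Long-Evans and at 1.5, 96, 240 and 384 h in Han/Wistar, gave the spread without TCDD. The authors' deposited table of each instrument holds 1 value for each target and group, a fold change on a scale taken to be log2, which is 0 for corn oil at 19 h. The spread between animals, the cycle numbers and the depth behind each value are therefore unknown here, and groups were the units of every test. Only Mug1 of the liver cell markers was on the panel, and a fold change carries no level, so the liver label was not checked against markers. In bulk liver RNA, fewer cells of a type and less RNA per cell cannot be told apart.

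TCDD binds the aryl hydrocarbon receptor (AHR), which then enters the nucleus, pairs with its partner ARNT and switches on genes that carry a short response element with the core GCGTG. In liver the classical targets are the P450s of the Cyp1 family and enzymes such as Nqo1, and the targets also include Ahrr and Tiparp, whose products repress the receptor. Genes that lie directly under the receptor are usually among the first to respond.

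The letters GCGTG, searched on both strands, occurred in the promoter window (250 bases before to 50 after the start, RefSeq, GRCr8) of 19 of the 42 targets with an entry, 45.2%, against 31.1% of 27457 promoters of the same length. Onset was set as the first time at which a target was past 2-fold, outside the range of its strain's corn oil groups and on the side it had at 10 h. Of the 11 targets with onset at 3 h in both strains, 9 had an entry and 6 of them held the core, and of the 29 targets with no onset, 24 had an entry and 10 held it. The longer form TNGCGTG, which overlaps the core, occurred in 4 of the 42 targets (Ahrr, Cyp1b1, Pmm1 and Pomp), 9.52%, against 5.12% of all promoters. The windows of Cyp1a2, Eml4 and Nfe2l2, which also had their onset at 3 h in both strains, held no core. Cyp1a1 and Aldh3a1, with the same onset, had no entry. The 4 windows below were picked from those that hold the core. They are shown because, on the OpenArray, Ahrr, Tiparp and Pmm1 had their onset at 3 h in both strains while Cyp1b1 was still climbing at 19 h. Capitals mark the core on either strand.
Ahrr: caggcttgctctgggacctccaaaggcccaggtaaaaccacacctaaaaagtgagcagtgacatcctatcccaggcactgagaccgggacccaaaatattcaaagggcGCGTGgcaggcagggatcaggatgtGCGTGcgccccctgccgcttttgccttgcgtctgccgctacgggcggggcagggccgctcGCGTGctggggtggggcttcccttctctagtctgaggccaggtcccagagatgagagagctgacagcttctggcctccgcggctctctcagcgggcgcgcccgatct
Tiparp: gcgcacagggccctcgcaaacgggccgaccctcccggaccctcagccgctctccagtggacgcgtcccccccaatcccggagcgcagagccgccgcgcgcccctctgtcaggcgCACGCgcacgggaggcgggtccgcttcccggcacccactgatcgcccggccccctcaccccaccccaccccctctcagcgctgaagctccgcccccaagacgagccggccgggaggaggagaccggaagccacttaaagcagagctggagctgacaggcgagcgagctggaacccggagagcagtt
Pmm1: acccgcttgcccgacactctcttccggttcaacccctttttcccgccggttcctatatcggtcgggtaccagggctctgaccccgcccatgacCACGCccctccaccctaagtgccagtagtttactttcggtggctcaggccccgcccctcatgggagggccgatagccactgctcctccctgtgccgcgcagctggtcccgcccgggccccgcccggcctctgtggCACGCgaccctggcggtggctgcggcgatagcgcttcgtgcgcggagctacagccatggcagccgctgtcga
Cyp1b1: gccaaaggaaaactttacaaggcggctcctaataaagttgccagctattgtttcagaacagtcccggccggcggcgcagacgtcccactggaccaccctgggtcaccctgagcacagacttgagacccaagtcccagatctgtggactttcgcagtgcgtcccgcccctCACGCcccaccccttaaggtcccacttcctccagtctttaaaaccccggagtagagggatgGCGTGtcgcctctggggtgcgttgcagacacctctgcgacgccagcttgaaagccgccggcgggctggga
The window of Ahrr is chr1:30821969-30822268 on the plus strand, with cores beginning at -142, -117 and -57 from the start. Tiparp has chr2:152063519-152063818 on the plus strand with 1 core at -136. For Pmm1 the window is chr7:115356975-115357274 on the minus strand, with cores at -157 and -22. Cyp1b1 has chr6:21094315-21094614 on the plus strand, with cores at -81 and -20. A match describes these letters only and does not show binding.

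Within 3 h of the dose, 13 targets were past 2-fold in both strains, all of them higher than corn oil at 19 h. By 10 h there were 15 such targets, 14 higher and 1 lower, the lower one being Inmt. The targets past 2-fold in Long-Evans TCDD livers numbered 15 (30.6%), 15 (30.6%) and 18 (36.7%) at 3, 6 and 10 h, and those in Han/Wistar TCDD livers 15 (30.6%), 14 (28.6%) and 15 (30.6%). The corn oil groups at times other than 19 h passed 2-fold in 7 of 98 values (7.14%) in Long-Evans and in 21 of 194 (10.8%) in Han/Wistar.

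**Figure D1:**
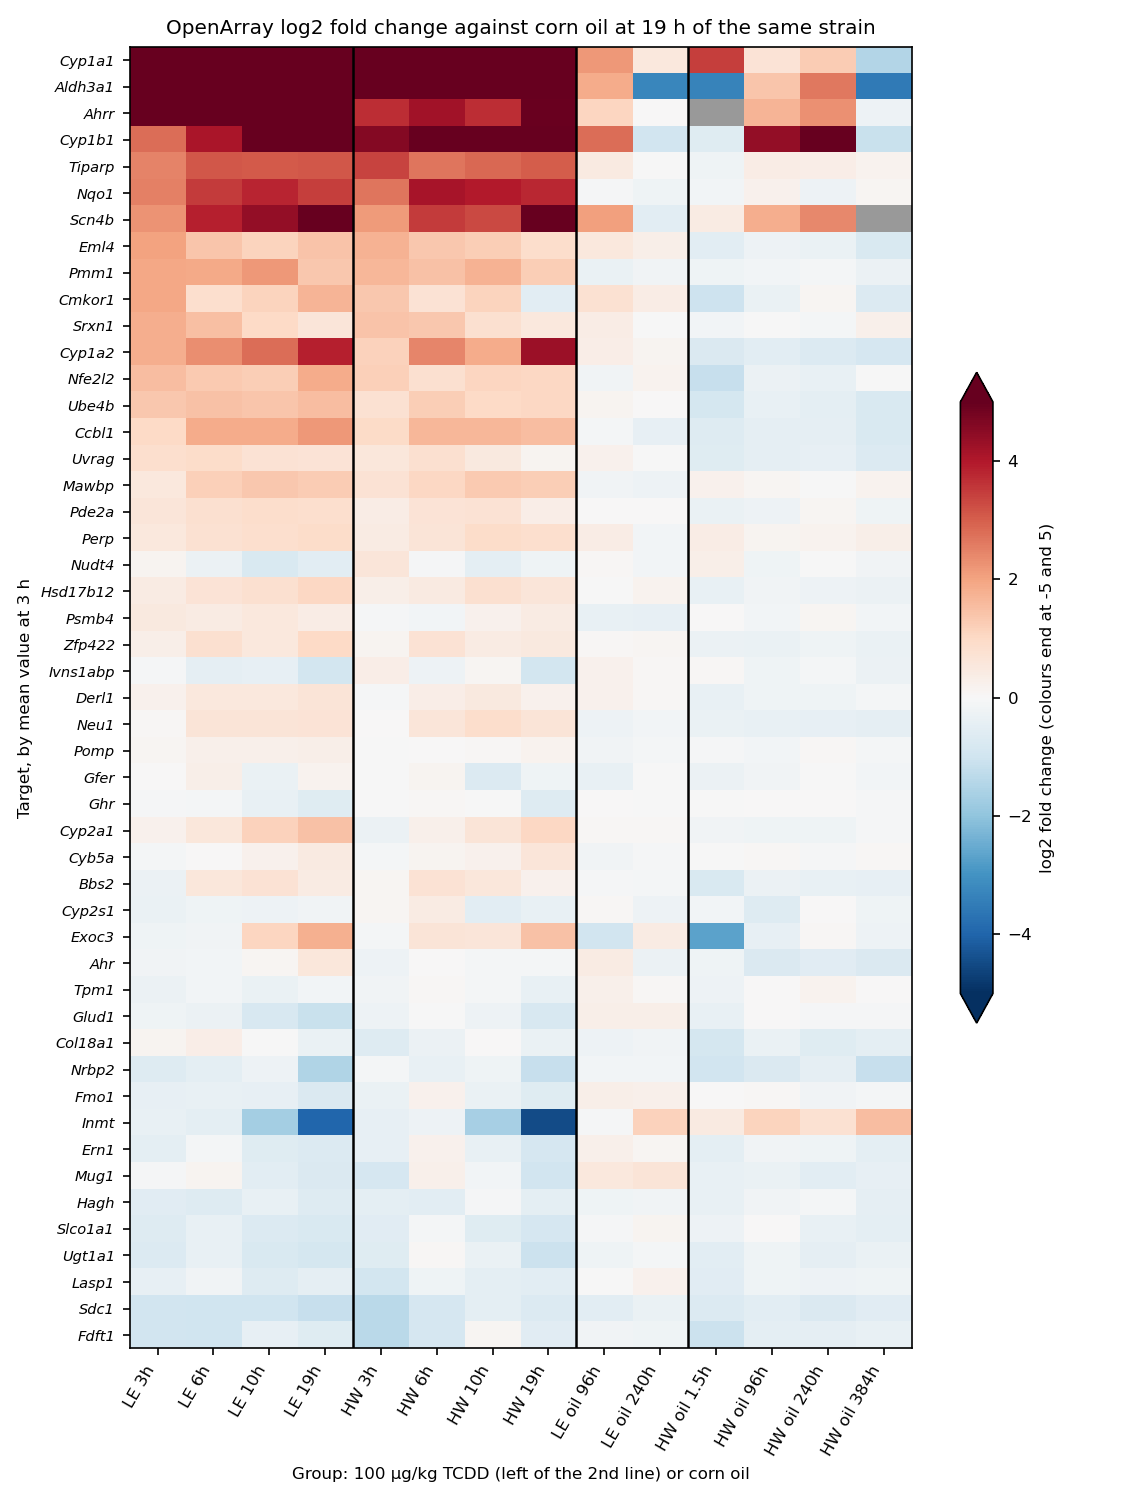
Heat map of the deposited OpenArray log2 fold changes of 49 targets (rows, by mean value at 3 h) in each group (columns): TCDD in Long-Evans (LE) and Han/Wistar (HW) at 3, 6, 10 and 19 h, then the corn oil groups at other times. Grey cells have no value and colours end at -5 and 5. The top 7 rows are red at 3 h in both strains, and Inmt turns blue at 10 h.

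Over the 3 early times together, 33 of 49 targets (67.3%) passed the two-sided exact permutation test that set TCDD against corn oil groups within each strain, at a Benjamini-Hochberg adjusted p under 0.05, and 26 of them were higher and 7 lower. The panel was built from chosen assays, so this is a share of the panel and not of liver genes. The test had 1120 reassignments of groups (700 where a corn oil value is missing), its smallest p was 0.000893, and 20 targets reached that value, with an adjusted p of 0.0022. Without adjustment 35 targets had a p under 0.05. In Han/Wistar alone 21 were called, and in Long-Evans alone the smallest p is 0.1, so none could be. Scaling moved the split: there were 13 higher and 30 lower with the mean over targets removed from each group, and 21 higher and 17 lower with the median removed. Removing the mean also ended the calls of Cmkor1, Mawbp and Srxn1, whose differences became 0.27, 0.14 and 0.34. The means removed from the early TCDD groups lay between 0.67 and 0.99 log2 units and the medians between 0.04 and 0.52. Each corn oil group had its own mean or median removed as well. The directions of small changes are therefore relative to the uncentred zero.

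The 3 dioxin P450s were all called, beside 67.3% of all targets. Their median difference between early TCDD and corn oil was 3.76 log2 units, beside 0.47 over all 49 targets. Cyp1a1, which oxidises polycyclic aromatic compounds, stood at 7.85, 9.11 and 9.24 log2 units at 3, 6 and 10 h in Long-Evans TCDD livers and at 8.50, 9.96 and 9.37 in Han/Wistar TCDD livers in the authors' deposited table. Corn oil groups of Cyp1a1 ran, in the authors' deposited table, from 0.00 to 2.16 in Long-Evans and from -1.48 to 3.47 in Han/Wistar, so every early TCDD group lay above every corn oil group. Averaged over the strains the difference was 8.16 log2 units (adjusted exact permutation p = 0.0022). By 6 h Cyp1a1 was close to its 19 h values, which in the authors' deposited table were 9.47 for Long-Evans and 9.99 for Han/Wistar.

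Cyp1a2, the member of the family that normal liver expresses, was further from its 19 h values at 10 h. It stood at 1.81, 2.33 and 2.81 at 3, 6 and 10 h in Long-Evans TCDD livers and at 1.16, 2.44 and 1.84 in Han/Wistar TCDD livers, against corn oil ranges of 0.00 to 0.32 and -0.84 to 0.00 in the authors' deposited table. The 19 h values in the authors' deposited table were 3.88 for Long-Evans and 4.30 for Han/Wistar. The early difference for Cyp1a2 was 2.27 log2 units (adjusted exact permutation p = 0.0022).

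Cyp1b1, a P450 that is mostly expressed outside the liver, climbed at every step on the OpenArray. Its values were 2.81, 4.08, 5.86 and 9.60 at 3, 6, 10 and 19 h in Long-Evans TCDD livers and 4.60, 5.21, 6.49 and 10.62 in Han/Wistar TCDD livers in the authors' deposited table. Corn oil groups of Cyp1b1 spread widely in the authors' deposited table, from -0.95 to 2.79 in Long-Evans and from -1.10 to 5.05 in Han/Wistar, and the Han/Wistar value at 3 h lay within that range. Its early difference of 3.76 log2 units was called (adjusted exact permutation p = 0.0114). On the 7900HT Cyp1b1 was not called (difference 2.17, adjusted exact permutation p = 0.226) and did not climb at every step. It read 3.67, 4.97 and 2.94 at 3, 6 and 10 h in Han/Wistar TCDD livers there. In Long-Evans TCDD livers it read -0.92, -0.23, 2.38 and 1.73 at 3, 6, 10 and 19 h.

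Of the other AHR-inducible enzymes, 3 of 5 listed were measured and 2 were called, both higher, a share close to the 67.3% of all targets. Nqo1, a quinone reductase, stood at 2.53, 3.49 and 3.83 at 3, 6 and 10 h in Long-Evans TCDD livers and at 2.69, 4.12 and 3.96 in Han/Wistar TCDD livers, against corn oil ranges of -0.20 to 0.00 and -0.27 to 0.20 in the authors' deposited table. The corn oil groups of Nqo1 were close together, and its early difference was 3.49 log2 units (adjusted exact permutation p = 0.0022). Aldh3a1, an aldehyde dehydrogenase, stood at 6.41, 7.65 and 8.62 in Long-Evans TCDD livers and at 7.83, 8.81 and 9.30 in Han/Wistar TCDD livers, against corn oil ranges of -3.26 to 1.87 and -3.54 to 2.62 in the authors' deposited table. All early groups of Aldh3a1 lay above all corn oil groups, with a difference of 8.62 log2 units (adjusted exact permutation p = 0.0022). On the 7900HT Aldh3a1 was not called (difference 1.99, adjusted exact permutation p = 0.78), and its Han/Wistar corn oil group at 384 h read 23.00. Ugt1a1, which conjugates bilirubin, did not pass (difference -0.24, adjusted exact permutation p = 0.155).

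Both feedback repressors were called, beside 67.3% of all targets, with a median difference of 3.71 log2 units. Tiparp, an ADP-ribosyltransferase, was near its 19 h size from the first time, with 2.50, 3.11, 3.08 and 3.11 at 3, 6, 10 and 19 h in Long-Evans TCDD livers and 3.37, 2.67, 2.87 and 3.02 in Han/Wistar TCDD livers in the authors' deposited table. The corn oil groups of Tiparp in the authors' deposited table ran from -0.01 to 0.45 in Long-Evans and from -0.20 to 0.36 in Han/Wistar, and its early difference was 2.79 log2 units (adjusted exact permutation p = 0.0022). Ahrr, which competes with the receptor for its partner, stood at 7.45, 5.51 and 7.08 in Long-Evans TCDD livers and at 3.71, 4.19 and 3.71 in Han/Wistar TCDD livers, against corn oil ranges of 0.00 to 1.07 and -0.26 to 2.29 in the authors' deposited table. The early difference for Ahrr was 4.63 log2 units (adjusted exact permutation p = 0.0064, with 4 Han/Wistar corn oil groups because 1 value is missing). Ahr itself, the only measured member of the receptor list on this instrument, was between -0.25 and 0.10 in the 6 early groups in the authors' deposited table and did not pass (difference 0.11, adjusted exact permutation p = 0.53).

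**Figure D2:**
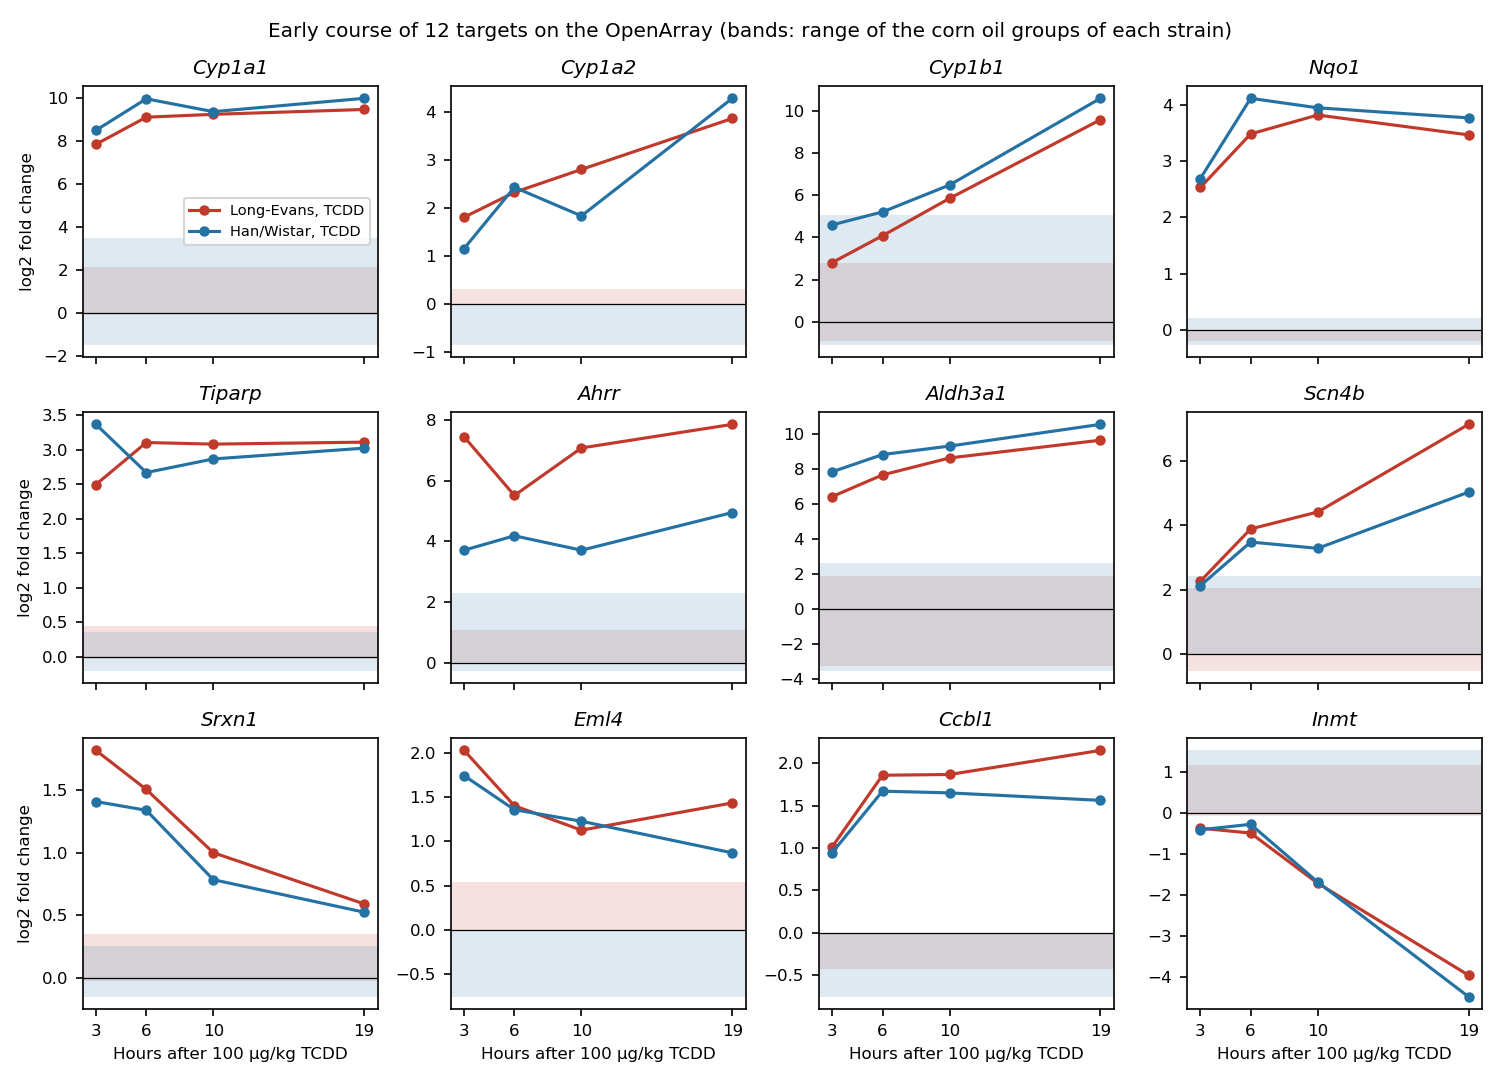
Deposited OpenArray log2 fold change (y) against hours after 100 µg/kg TCDD (x) for 12 targets, Long-Evans in red and Han/Wistar in blue, with bands for the range of each strain's corn oil groups. Tiparp is near its 19 h value at 3 h, Cyp1b1 climbs throughout, Srxn1 declines, and Inmt lies just under its bands at 3 and 6 h and past 2-fold below 0 at 10 h.

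Of the stress regulators 2 of 4 listed were measured, and only Nfe2l2 was called, higher, where 67.3% of all targets were called. Nfe2l2, the regulator of the antioxidant response, stood at 1.56, 1.29 and 1.22 at 3, 6 and 10 h in Long-Evans TCDD livers and at 1.18, 0.82 and 1.08 in Han/Wistar TCDD livers, against corn oil ranges of -0.17 to 0.19 and -1.16 to 0.00 in the authors' deposited table. The early difference of Nfe2l2 was 1.38 log2 units (adjusted exact permutation p = 0.0022). Srxn1, sulfiredoxin, which repairs oxidised peroxiredoxins, had its highest value at 3 h and a lower one at every later time, with 1.81, 1.50, 1.00 and 0.59 at 3, 6, 10 and 19 h in Long-Evans TCDD livers and 1.41, 1.34, 0.78 and 0.53 in Han/Wistar TCDD livers in the authors' deposited table. Eml4, a microtubule-binding protein, stood at 2.03, 1.40 and 1.13 at 3, 6 and 10 h in Long-Evans TCDD livers and at 1.74, 1.36 and 1.23 in Han/Wistar TCDD livers in the authors' deposited table. Early differences were 1.25 for Srxn1 and 1.53 for Eml4 (adjusted exact permutation p = 0.0022 each). These falling courses were not seen on the 7900HT. There Srxn1 read 3.10, 4.10 and 3.85 at 3, 6 and 10 h in Long-Evans TCDD livers and 1.30, -0.29 and 0.70 in Han/Wistar TCDD livers. Eml4 read 0.53, 1.29 and 1.14 in Long-Evans TCDD livers and -0.50, -0.45 and 1.29 in Han/Wistar TCDD livers there. Ern1, the endoplasmic reticulum stress sensor, did not pass (difference -0.21, adjusted exact permutation p = 0.245).

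Of the 3 membrane protein targets, 2 were called higher and 1 lower, where 67.3% of all targets were called. Cmkor1, the chemokine-scavenging receptor now called Ackr3, was highest at 3 h, with 1.95, 0.83 and 1.11 at 3, 6 and 10 h in Long-Evans TCDD livers and 1.34, 0.73 and 1.11 in Han/Wistar TCDD livers, against corn oil ranges of 0.00 to 0.76 and -1.03 to 0.12 in the authors' deposited table. Scn4b, a sodium channel subunit, was higher at 10 h than at 3 h, with 2.26, 3.89 and 4.41 in Long-Evans TCDD livers and 2.12, 3.48 and 3.28 in Han/Wistar TCDD livers, against corn oil ranges of -0.52 to 2.06 and 0.00 to 2.42 in the authors' deposited table. The 7900HT had Cmkor1 below 0 at 3 h in both strains. Sdc1, a heparan sulfate proteoglycan, stood at -0.96, -0.98 and -0.98 in Long-Evans TCDD livers and at -1.36, -0.83 and -0.47 in Han/Wistar TCDD livers, against corn oil ranges of -0.52 to 0.00 and -0.72 to 0.00 in the authors' deposited table. The differences were 1.18 for Cmkor1, 2.40 for Scn4b and -0.54 for Sdc1 (adjusted exact permutation p = 0.0022, 0.0175 and 0.021). Sdc1 in Han/Wistar was lowest at 3 h and lay inside its corn oil range by 10 h, and its call was lost without the 3 h groups (difference -0.42) or the 6 h groups (-0.55).

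Of the 6 metabolic enzymes measured, 3 were called higher and 1 lower, a share close to the 67.3% of all targets, and their median difference of 0.57 log2 units was close to the 0.47 of all targets. Pmm1, a phosphomannomutase, was already at 1.94 at 3 h and stood at 1.88 and 2.15 at 6 and 10 h in Long-Evans TCDD livers, with 1.67, 1.48 and 1.75 in Han/Wistar TCDD livers in the authors' deposited table. The corn oil groups of Pmm1 lay in the authors' deposited table between -0.32 and 0.00 in Long-Evans and between -0.31 and 0.00 in Han/Wistar. Ccbl1, the kynurenine aminotransferase now called Kyat1, stood at 1.01, 1.86 and 1.87 in Long-Evans TCDD livers and at 0.95, 1.67 and 1.65 in Han/Wistar TCDD livers, against corn oil ranges of -0.43 to 0.00 and -0.76 to 0.00 in the authors' deposited table. Mawbp (now Pbld1) stood at 0.54, 1.19 and 1.33 in Long-Evans TCDD livers and at 0.71, 1.04 and 1.33 in Han/Wistar TCDD livers in the authors' deposited table, so it crossed 2-fold at 6 h in both strains. The differences were 1.98, 1.82 and 1.05 log2 units for Pmm1, Ccbl1 and Mawbp (adjusted exact permutation p = 0.0022 each).

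Glud1, glutamate dehydrogenase, stood at -0.21, -0.28 and -0.80 at 3, 6 and 10 h in Long-Evans TCDD livers and at -0.25, -0.02 and -0.24 in Han/Wistar TCDD livers in the authors' deposited table. It was called lower (difference -0.35, adjusted exact permutation p = 0.0342), while Cyb5a and Fdft1 were not called. The call of Glud1 was lost without the 3 h groups (difference -0.38), the 10 h groups (-0.24), any 1 Long-Evans corn oil group (-0.32 to -0.39), or the Han/Wistar corn oil groups at 19 or 96 h (-0.34 each). Fdft1, squalene synthase of cholesterol synthesis, was closer to 0 at 10 h than at 3 h in both strains and still below its corn oil range of -0.21 to 0.00 in Long-Evans: it stood at -0.97, -0.98 and -0.42 in Long-Evans TCDD livers and at -1.36, -0.82 and 0.10 in Han/Wistar TCDD livers in the authors' deposited table. Corn oil at 1.5 h in Han/Wistar read -1.06 for Fdft1 in the authors' deposited table, and the early difference did not pass (-0.44, adjusted exact permutation p = 0.108).

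Both liver enzymes listed as falling with dioxin were called lower, where 67.3% of all targets were called in either direction. Their median difference was -0.86 log2 units. Inmt, an indolethylamine methyltransferase, was late: it stood at -0.37, -0.49, -1.71 and -3.95 at 3, 6, 10 and 19 h in Long-Evans TCDD livers and at -0.41, -0.27, -1.68 and -4.47 in Han/Wistar TCDD livers in the authors' deposited table. Most corn oil groups of Inmt lay above the 19 h zero in the authors' deposited table, ranging from -0.06 to 1.17 in Long-Evans and from 0.00 to 1.53 in Han/Wistar. The early difference of -1.39 log2 units (adjusted exact permutation p = 0.0022) therefore counts both sides of that zero. The step between 3 and 10 h, which does not use corn oil, was -1.34 in Long-Evans and -1.27 in Han/Wistar. Its onset at 10 h does rest on the 19 h zero, while the mean of its corn oil groups was 0.37 in Long-Evans and 0.77 in Han/Wistar. Against corn oil at 1.5 h, Inmt in Han/Wistar at 3 h gave -0.86. Fmo1, a flavin monooxygenase, moved little, at -0.41, -0.37 and -0.41 in Long-Evans TCDD livers and -0.34, 0.21 and -0.33 in Han/Wistar TCDD livers in the authors' deposited table (difference -0.34, adjusted exact permutation p = 0.0342). The difference of Fmo1 was -0.57 in Long-Evans and -0.11 in Han/Wistar. Its call was lost without the 3 h or the 10 h groups (difference -0.29 either way).

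By the onset rule, 11 targets began at 3 h in both strains: Ahrr, Aldh3a1, Cmkor1, Cyp1a1, Cyp1a2, Eml4, Nfe2l2, Nqo1, Pmm1, Srxn1 and Tiparp. Mawbp alone began at 6 h in both, and Inmt alone at 10 h in both. No onset by 10 h was found for 29 targets, of which 14 were called by the test all the same (9 higher and 5 lower), with early values inside the limits of that rule. The widest early value among those 29 was -1.36, that of Fdft1 in Han/Wistar at 3 h, which had turned by 10 h.

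For the other 7 targets the rule gave the strains different times. Ccbl1, Cyp1b1, Scn4b and Ube4b, a ubiquitin chain elongation factor, began at 3 h in Long-Evans and at 6 h in Han/Wistar. Cyp2a1, a steroid-hydroxylating P450 of rat liver, and Exoc3, an exocyst subunit, began at 10 h in Long-Evans and had no onset in Han/Wistar. Sdc1 began at 3 h in Han/Wistar and had none in Long-Evans. Several of these calls were near the limit. Ccbl1 at 3 h read 1.01 in Long-Evans TCDD livers and 0.95 in Han/Wistar TCDD livers in the authors' deposited table, and Sdc1 read -0.96 and -1.36. For Cyp1b1 and Scn4b, it was the higher upper end of the Han/Wistar corn oil range that delayed the call. Cyp1b1 at 3 h was lower in Long-Evans, at 2.81, than in Han/Wistar TCDD livers, at 4.60 in the authors' deposited table. Scn4b at 3 h read 2.26 in Long-Evans and 2.12 in Han/Wistar, where the corn oil ranges ended at 2.06 and 2.42. Ube4b at 3 h in the authors' deposited table read 1.33 in Long-Evans and 0.76 in Han/Wistar, and Cyp2a1 at 10 h read 1.17 in Long-Evans and 0.65 in Han/Wistar. The 6 onsets that came first in Long-Evans and the 1 that came first in Han/Wistar rest in part on values close to 2-fold and on corn oil ranges. They also rest on the 19 h zero: against corn oil at 1.5 h, Han/Wistar at 3 h gave -0.67 for Sdc1, 1.59 for Ccbl1 and 1.63 for Ube4b, so Sdc1 was then within 2-fold and Ccbl1 and Ube4b were past it.

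**Figure D3:**
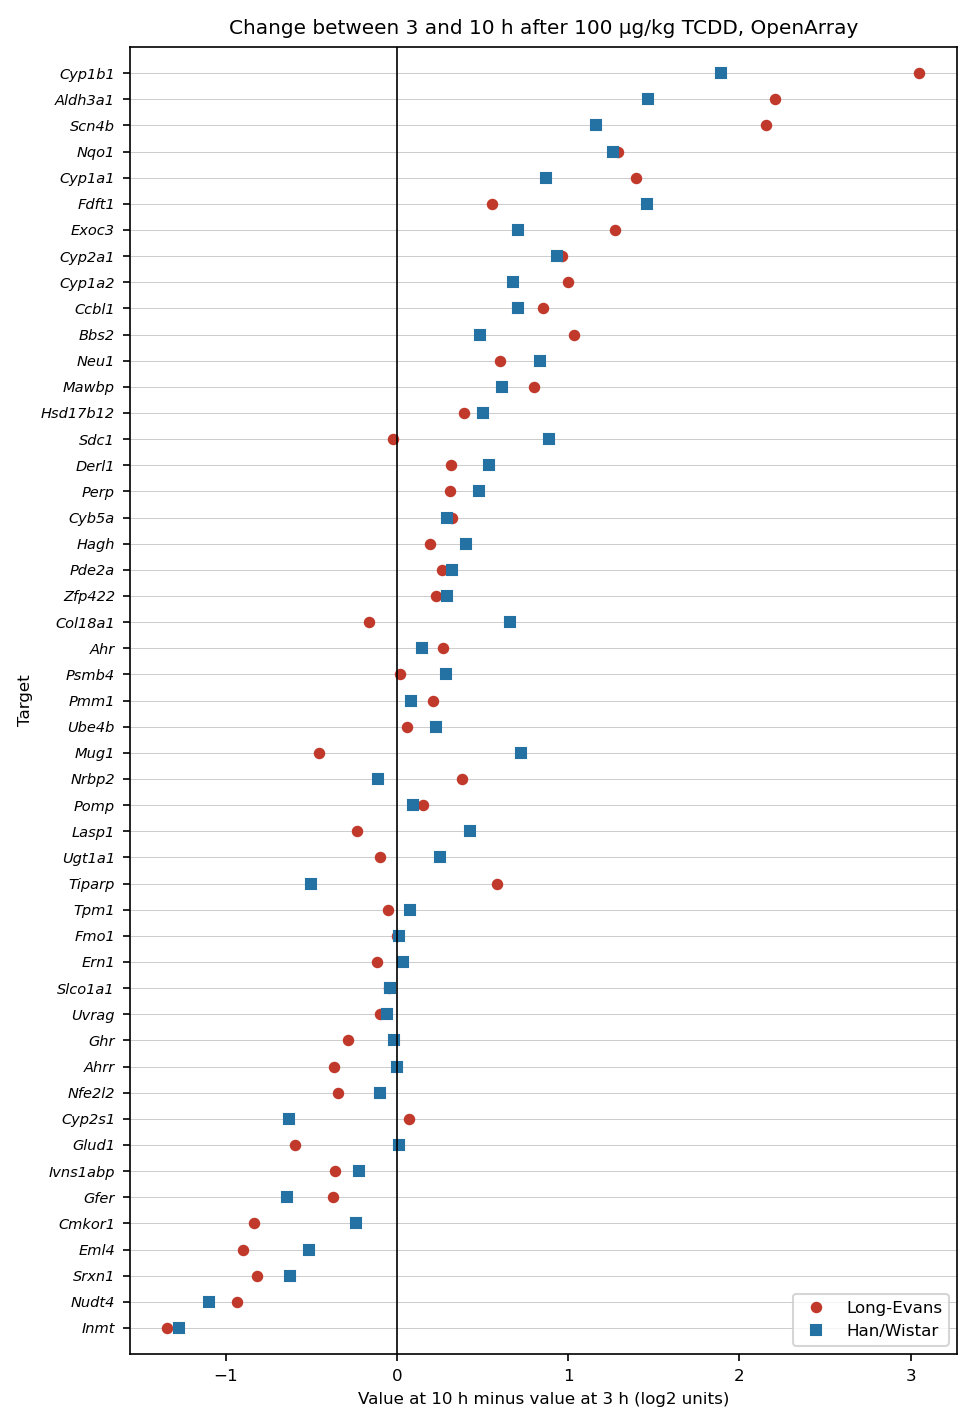
Value at 10 h minus value at 3 h (x, log2 units) for each of 49 OpenArray targets (rows), Long-Evans as red circles and Han/Wistar as blue squares. Cyp1b1 and Aldh3a1 lie farthest to the right in both strains, Inmt, Nudt4, Srxn1 and Eml4 lie below 0 in both, and Tiparp and Mug1 lie on opposite sides of 0 in the strains.

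The change between 3 and 10 h needs no corn oil value and so is free of the choice of zero. It was above 0 in both strains for 26 targets and below 0 in both for 12. Across the 49 targets the change correlated between strains with a Pearson's r of 0.81, a description over targets that share plates and assays. Cyp1b1 gained 3.05 log2 units in Long-Evans and 1.90 in Han/Wistar, Aldh3a1 gained 2.21 and 1.47, and Nqo1 gained 1.29 and 1.26. In contrast, Srxn1 changed by -0.81 in Long-Evans and -0.62 in Han/Wistar. Over 3, 6 and 10 h, values rose at each step in both strains for 10 targets, Aldh3a1 and Cyp1b1 among them. They fell at each step in both for 3, namely Eml4, Nudt4 (a diphosphoinositol polyphosphate phosphatase) and Srxn1. From 10 to 19 h Nudt4 rose by 0.27 in Long-Evans and 0.26 in Han/Wistar, and Eml4 rose by 0.31 in Long-Evans.

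The strains differed in this change by more than 1 log2 unit for 3 targets. Cyp1b1 gained 1.16 more in Long-Evans, and Tiparp 1.09 more, as it gained 0.59 in Long-Evans and moved by -0.50 in Han/Wistar. Mug1, a proteinase inhibitor of the macroglobulin family made by hepatocytes, had -0.45 in Long-Evans and 0.72 in Han/Wistar. Over all 49 targets the median difference in the change was -0.07, with 20 targets above and 29 below 0. As a share of the 19 h value, the median over the targets past 2-fold at 19 h was 56.8%, 70.2% and 79.4% at 3, 6 and 10 h in Long-Evans (22 targets) and 59.3%, 81.7% and 81.6% in Han/Wistar (18 targets). These sets are not the same targets, and no test of the shares was possible.

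Fold changes at matched times were compared as Long-Evans minus Han/Wistar. At 3 h, 3 targets (6.12%) were past 1 log2 unit, at 6 h 3 (6.12%) and at 10 h 2 (4.08%). Ahrr was past it at each time, higher in Long-Evans by 3.74, 1.33 and 3.37 log2 units. Cyp1b1 and Aldh3a1 were lower in Long-Evans, with differences of -1.79 and -1.42 at 3 h, -1.13 and -1.16 at 6 h, and -0.64 and -0.68 at 10 h. Scn4b was higher in Long-Evans by 1.13 at 10 h. Among the 5 widest at each time were also Tiparp (-0.87) and Col18a1 (0.81), a basement membrane collagen, at 3 h, Cyp1a1 (-0.86) and Exoc3 (-0.82) at 6 h, and Cyp1a2 (0.97) at 10 h.

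**Figure D4:**
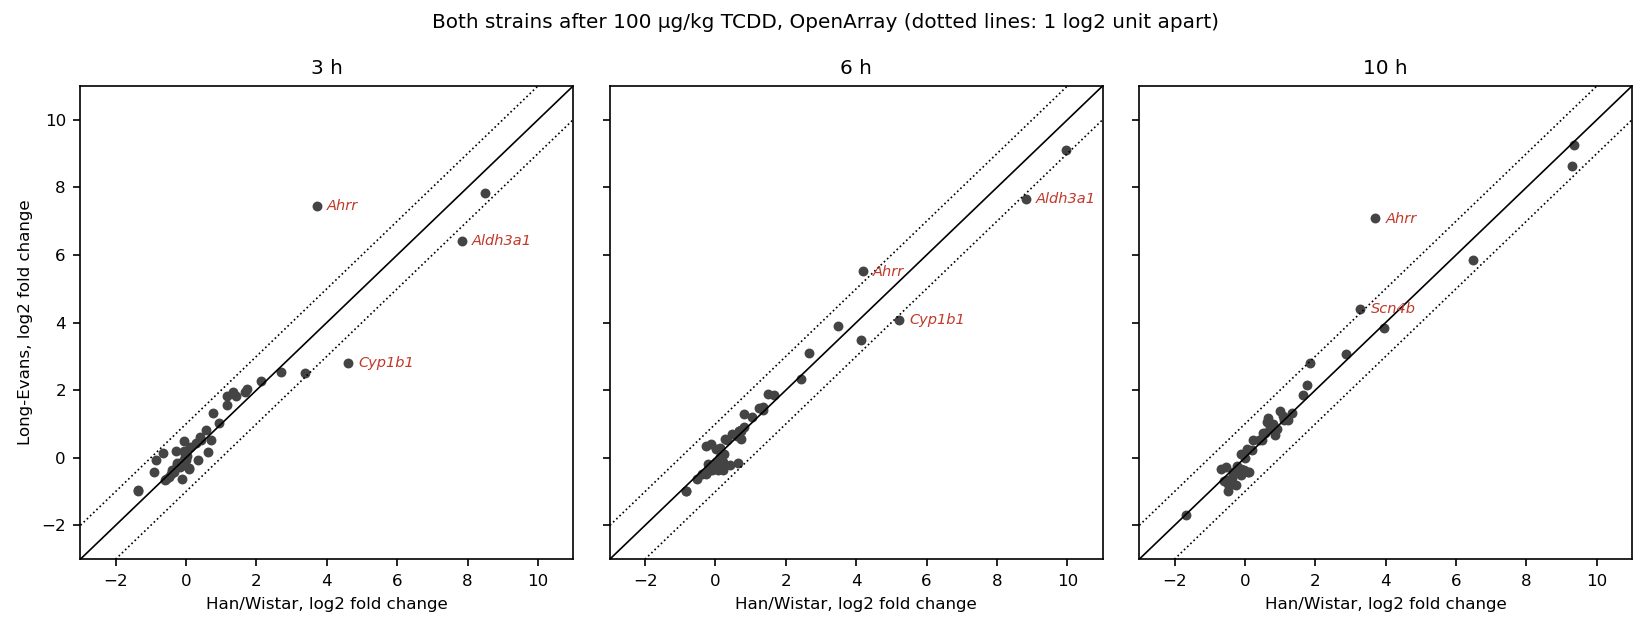
Deposited OpenArray log2 fold change in Long-Evans (y) against Han/Wistar (x) at 3, 6 and 10 h after 100 µg/kg TCDD, 1 point for each of 49 targets, with the line of equality solid and differences of 1 log2 unit dotted. Named targets lie past the dotted lines, 3 at 3 h, 3 at 6 h and 2 at 10 h.

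These differences were read beside the same strain difference in corn oil at 19, 96 and 240 h. With 3 against 3 groups the smallest p of a two-sided exact permutation test is 0.1, so no target could pass. The early differences did not overlap those in corn oil for 16 of 49 targets (32.7%), 6 higher and 10 lower in Long-Evans. Ahrr was the one target among them that was also past 1 log2 unit at any time, with corn oil differences from -2.29 to 0.00. Pmm1 was higher in Long-Evans by 0.27, 0.40 and 0.40 at 3, 6 and 10 h, against -0.17 to 0.00 in corn oil. Psmb4, a proteasome subunit, was higher by 0.56, 0.52 and 0.30, against -0.51 to 0.00. The widest difference among those lower in Long-Evans was -0.58, that of Fmo1 at 6 h. Aldh3a1, Cyp1b1 and Scn4b overlapped, because their corn oil differences spanned -5.89 to 0.50, -6.00 to 0.00 and -2.94 to 0.24.

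Over the whole panel the median absolute difference was 0.26, 0.21 and 0.22 log2 units at 3, 6 and 10 h, and the signed medians were 0.07, -0.09 and 0.00. Across targets the strains correlated with Pearson's r of 0.93, 0.98 and 0.97, given as a description only. Whether differences of this size exceed the spread between animals could not be seen, as no value per animal was used.

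The 7900HT values of the same groups are a technical check on nearly the same livers and not independent evidence. For 80 OpenArray values past 2-fold of shared targets, 65 (81.2%) had the same sign on the 7900HT. In Long-Evans that share was 69.2%, 76.9% and 93.3% at 3, 6 and 10 h, where 36.8%, 65.8% and 73.7% of all shared 7900HT values were above 0. In Han/Wistar it was 76.9%, 75% and 92.9%, where 42.1%, 39.5% and 52.6% were above 0. In the early test 11 of 39 targets (28.2%) were called there, 5 higher and 6 lower, and 17 had an unadjusted p under 0.05. Higher on both were Ccbl1, Cyp1a1, Cyp1a2, Nqo1 and Pmm1, and lower on both were Inmt and Sdc1. Cyb5a, Ern1, Ivns1abp and Tpm1 were called lower on the 7900HT only. Pmm1 stood at 3.43, 3.57 and 3.48 at 3, 6 and 10 h in Long-Evans TCDD livers and at 2.43, 2.65 and 4.43 in Han/Wistar TCDD livers on the 7900HT in the authors' deposited table. Cyp1a1 stood at 6.62, 7.64 and 8.26 in Long-Evans TCDD livers and at 12.22, 14.12 and 9.92 in Han/Wistar TCDD livers on the 7900HT in the authors' deposited table. Both kept every early group above every corn oil group on this instrument as well.

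**Figure D5:**
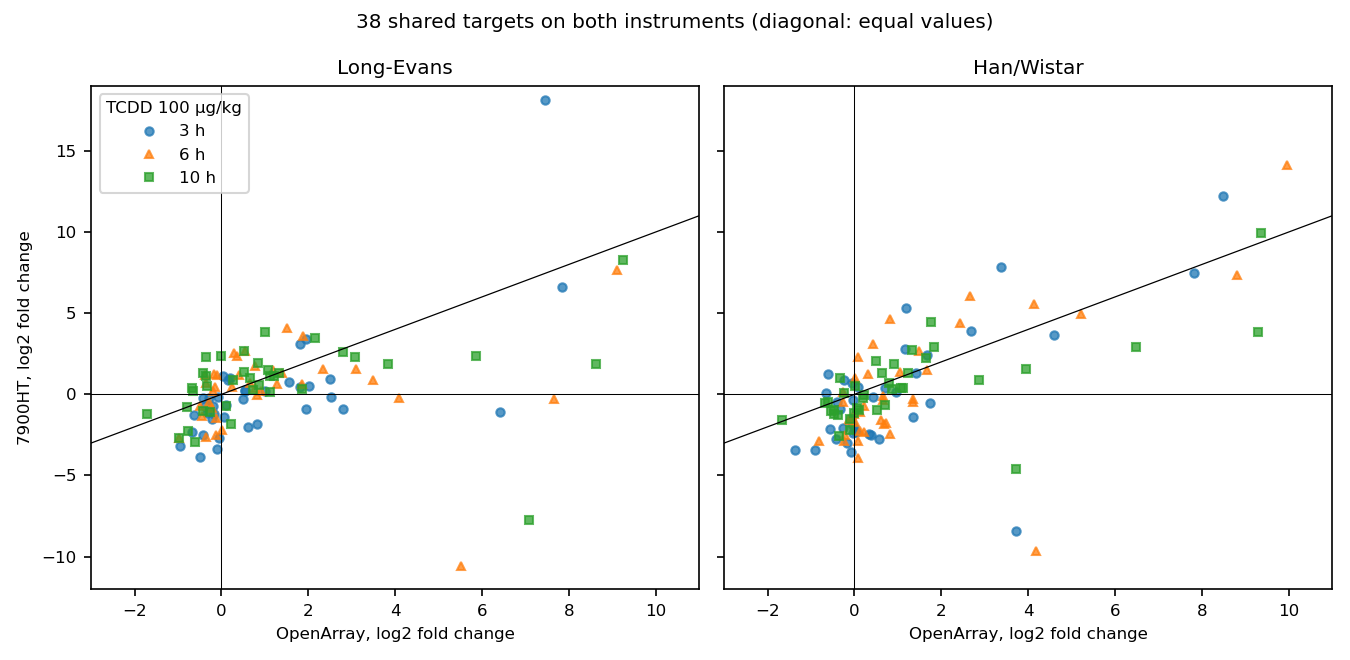
Deposited log2 fold change on the 7900HT (y) against the OpenArray (x) for 38 shared targets in Long-Evans and Han/Wistar, with circles for 3 h, triangles for 6 h and squares for 10 h and a line of equal values. The 5 lowest points on the 7900HT are Ahrr, which had values of -10.57 and -7.75 for Long-Evans and -8.40, -9.68 and -4.62 for Han/Wistar.

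Ahrr differed in sign between the instruments in 5 of the 6 early groups. On the 7900HT it stood at 18.13, -10.57 and -7.75 at 3, 6 and 10 h in Long-Evans TCDD livers and at -8.40, -9.68 and -4.62 in Han/Wistar TCDD livers, against corn oil ranges of -3.81 to 0.00 and -10.89 to 7.02 in the authors' deposited table. It was the one target whose 7900HT sign opposed an OpenArray value past 2-fold at 10 h, and it did so in both strains, so its early rise and its strain difference rest on the OpenArray alone. Earlier times held more such cases. Cmkor1 at 3 h stood at -0.93 in Long-Evans TCDD livers and at -1.42 in Han/Wistar TCDD livers on the 7900HT in the authors' deposited table, so its early onset too was seen on the OpenArray alone. At 3 h the sign was also opposed on the 7900HT for Aldh3a1 (-1.10), Cyp1b1 (-0.92) and Nqo1 (-0.13) in Long-Evans TCDD livers and for Eml4 (-0.50) in Han/Wistar TCDD livers in the authors' deposited table. At 6 h it was opposed for Aldh3a1 (-0.32) and Cyp1b1 (-0.23) in Long-Evans and for Eml4 (-0.45) and Srxn1 (-0.29) in Han/Wistar. Speed also read differently there: Tiparp stood at 0.96, 1.56 and 2.33 in Long-Evans TCDD livers and at 7.85, 6.06 and 0.91 in Han/Wistar TCDD livers in the authors' deposited table. Nqo1 stood at -0.13, 0.91 and 1.86 in Long-Evans TCDD livers and at 3.88, 5.57 and 1.55 in Han/Wistar TCDD livers on the 7900HT in the authors' deposited table. Such shifts were shared by many targets of one group. The 14 targets with 4 rows per gene in the raw cycle table had 7900HT medians of -0.42, -0.28 and 1.49 at 3, 6 and 10 h in Long-Evans TCDD livers and 2.18, 3.74 and -0.08 in Han/Wistar TCDD livers, over values of the authors' deposited table. The 25 targets with 2 rows had medians of -0.67, 0.69 and 0.86 in Long-Evans TCDD livers and -2.07, -1.57 and 0.10 in Han/Wistar TCDD livers, over the same table. The part of these set-wide shifts in the 7900HT strain differences was not tested. Arnt, the receptor's partner, was measured on the 7900HT only, where at 3 h it read -1.78 in Long-Evans TCDD livers and 1.55 in Han/Wistar TCDD livers in the authors' deposited table, and it was not called.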

How the data were processed

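Per the labels' protocols, cDNA from total liver RNA was measured by real-time PCR. The values are log2 fold changes that the authors deposited, 1 for each target and group, relative to the strain's own 19 h corn oil group. The log base is inferred, as no file header states it. The sources used here do not give reference genes, filters or how animals were averaged. R 2.12.2 was used, per the submitters' processing notes.

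Of 50 target names, 47 matched a current RefSeq symbol and 3 an older one. The 304 columns of raw cycle values carry animal codes that match no sample label and were not used, so p-values measure the spread between groups. Replicates are called biological in the series design.

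The test compared the mean of the TCDD groups at 3, 6 and 10 h with the mean of all corn oil groups in each strain, averaged over strains, over all reassignments of groups within a strain, with Benjamini-Hochberg adjustment at 0.05 over a platform's targets. It was tested on simulated data. The groups of one series at different times were treated as exchangeable. Members, lists and tests were chosen with earlier results of these data known. The text names the list members, the 10 targets farthest from 0 at 3 h in each strain, the 5 with the widest strain difference at each time and those with opposed signs between instruments at 10 h. Cyp2a1, Gfer, Ghr, Ivns1abp, Mug1, Nudt4, Pomp, Psmb4, Tpm1 and Ube4b, and calls lost or turned under alternatives, were named after their values were seen. Python 3.11.15, numpy 2.4.6, pandas 2.3.3 and matplotlib 3.10.9 were used.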

Additional observations from a re-analysis of the deposited data

Results flagged for a closer look

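Gfer, a sulfhydryl oxidase that supports liver regeneration, moved in opposite directions in the strains on the 7900HT, where the mean of the 3 early times was higher in Long-Evans than in Han/Wistar by 2.67 log2 units. Every Long-Evans TCDD group lay above 0, at 1.15, 2.53 and 2.29 at 3, 6 and 10 h, and every Han/Wistar TCDD group below it, at -0.38, -1.10 and -0.56, in the authors' deposited table. Set against the strain difference in corn oil at 19, 96 and 240 h, it was 2.41 log2 units wider and overlapped it (two-sided exact permutation p = 0.2, where the smallest p is 0.1). Over both strains Gfer was not called on this instrument (adjusted exact permutation p = 0.857). Corn oil groups of Gfer ran from -0.04 to 2.20 in Long-Evans and from -1.28 to 1.15 in Han/Wistar on the same instrument in the authors' deposited table, and both ranges overlap the TCDD values. On the OpenArray, Gfer stood at 0.03, 0.30 and -0.35 in Long-Evans TCDD livers and at -0.03, 0.13 and -0.67 in Han/Wistar TCDD livers in the authors' deposited table. Gfer was not alone on the 7900HT in having early means of opposite sign. The means in Long-Evans and Han/Wistar were 0.23 and -3.04 for Tpm1 and 0.72 and -2.04 for Ghr, the growth hormone receptor. Ugt1a1 went the other way, with -2.39 and 0.31.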

How the results depend on the processing

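Over all 49 targets, the 33 OpenArray calls became 28 to 35 without any 1 corn oil group or any 1 TCDD time. They became 43 with group means removed and 38 with group medians removed. Of the 33 themselves, 28 were still called, in either direction, with means removed and 29 with medians removed. Leaving out Aldh3a1, Cyp1b1, Ahrr and Scn4b, chosen after seeing the data, gave 29, which follows from all 4 being called. The count was 21 in Han/Wistar alone, 11 on the 7900HT and 20 there with the sets of 4 and 2 rows centred apart. It was 0 in Long-Evans alone, where the smallest p of the exact permutation test is 0.1, which allows no call with or without adjustment. Against corn oil at 1.5 h, also chosen after seeing the data, 16 Han/Wistar targets were past 2-fold at 3 h, where the 19 h zero gave 15. Sdc1 (-0.67) and Fdft1 (-0.30) were then within 2-fold, Ccbl1 (1.59), Ube4b (1.63), Exoc3 (2.57) and Uvrag (1.15) were past it, and Ahrr had no value. The same-sign share between instruments was 75.6% past 4-fold and 73.8% with the row sets centred apart.

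With a limit of 2 log2 units, 7, 8 and 7 targets passed in both strains at 3, 6 and 10 h, and with 0.58, 23 passed at 6 h and 24 at 10 h. Onset at 3 h in both strains was found for 5 targets with a limit of 2 and for 7 on the 7900HT. Those on the 7900HT were Cyp1a1, Pmm1 and Srxn1, which were higher, and Cyb5a, Ern1, Ivns1abp and Sdc1, which were lower. Of them only Cyp1a1, Pmm1 and Srxn1 also had onset at 3 h in both strains on the OpenArray. Strain differences past the limit numbered 9, 8 and 5 at 3, 6 and 10 h with a limit of 0.58, 1, 0 and 1 with a limit of 2, 21, 30 and 19 on the 7900HT, and 5 at 10 h with the mean of the shared-time corn oil groups as the zero.

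Over 547 pairs of a called target and an alternative, 421 kept direction and call, 100 kept direction only and 26 turned. With group means removed the difference turned for Hsd17b12 (-0.24), Neu1 (-0.21), Pde2a (-0.17), Perp (-0.36), Uvrag (-0.0075), Zfp422 (-0.33), Derl1 (-0.52), Pomp (-0.73), Cyp2a1 (-0.44) and Bbs2 (-0.30), and with medians removed for Derl1 (-0.020) and Pomp (-0.23); removing a shift of the whole panel turns changes smaller than it. On the 7900HT it turned for Cmkor1 (-0.68), Neu1 (-0.25), Pde2a (-0.83), Uvrag (-0.94), Ahrr (-3.35) and Pomp (-1.02), and with the row sets centred apart for Aldh3a1 (-0.22), Cmkor1 (-0.32), Pde2a (-0.47), Uvrag (-0.59), Ahrr (-5.44), Cyp1b1 (-0.045), Pomp (-0.66) and Fmo1 (0.31); the cause was not tested. No paired analysis was possible because the deposited tables hold 1 value per group and carry no replicate numbers. The number of groups, and not the number of animals, limits every p here.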
